A study of Mus musculus with 2 samples.

Results

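The tumour necrosis factor (TNF) receptor superfamily genes that T cells are known for were compared between stimulated and mock-treated mouse CD4+ T cells. The 8 genes were taken by name: Tnfrsf4, Tnfrsf9, Tnfrsf18, Tnfrsf1a, Tnfrsf1b, Tnfrsf25, Cd27 and Fas. They are 8 of the 9696 genes that could be named in the deposited data, and they hold 66 of the 95558 named splice junctions. All 8 had at least 20 reads over both libraries, the minimum used here, so none was lost to a filter on low values. In the stimulated group, CD4+ T cells enriched from the spleens of male C57BL/6JJcl mice were held for 4 h on plate-bound anti-CD3e and anti-CD28, each at 2 ug/ml. The mock group went through the same handling without antibody. Each group is 1 library of cells from 4 spleens, pooled, so there was no replicate check, no test could be made, and every difference is one between 2 libraries. What was counted is reads that span a splice junction, 1341197 of them in the stimulated library and 1147232 in the mock library. Values are given as these reads or as reads per 1000000 junction reads of the library (RPM).

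Receptors of this family bind trimeric ligands of the TNF superfamily, most of them displayed on other immune cells. Receptors without a death domain (OX40, 4-1BB, GITR, TNFR2 and CD27) recruit TRAF adaptors and switch on NF-kB, which promotes survival, division and cytokine output of T cells that have seen antigen. Receptors with a death domain (Fas, TNFR1 and DR3) recruit TRADD or FADD and can signal for death through caspase-8, although TNFR1 and DR3 also signal to NF-kB. Mouse regulatory T cells carry OX40, GITR and TNFR2 before any stimulation, and CD27 is carried by most resting T cells.

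5 of the 8 receptor genes were higher in the stimulated library and none was lower. Tnfrsf9 was 8.35-fold higher, and Tnfrsf1b, Tnfrsf4, Fas and Cd27 were between 2.57-fold and 2.19-fold higher. The remaining 3 were called neither: Tnfrsf18 and Tnfrsf1a had intervals that included 1, and Tnfrsf25 was 1.81-fold lower in the stimulated library, short of the 2-fold limit. A gene was called higher or lower when its RPM differed at least 2-fold and the exact (Clopper-Pearson) 95% interval of the ratio excluded 1. By that rule 17.1% of the 7204 genes with 20 reads were higher, 25.1% were lower and 57.8% were neither. Scaling with the trimmed mean of M values, which adds 0.24 to every log2 ratio, gave 21.6% higher and 19.6% lower, and the same 5 receptor genes were higher. The median log2 ratio of stimulated over mock was 1.14 over the 8 receptor genes and −0.21 over all 7204 genes. The intervals cover counting error only, and reads amplified by PCR are not independent molecules. The variance between junctions of the same gene was 2.03 times the counting variance over 4917 genes. In a pool of cells, more cells of one kind and more RNA per cell cannot be told apart.

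**Figure D1:**
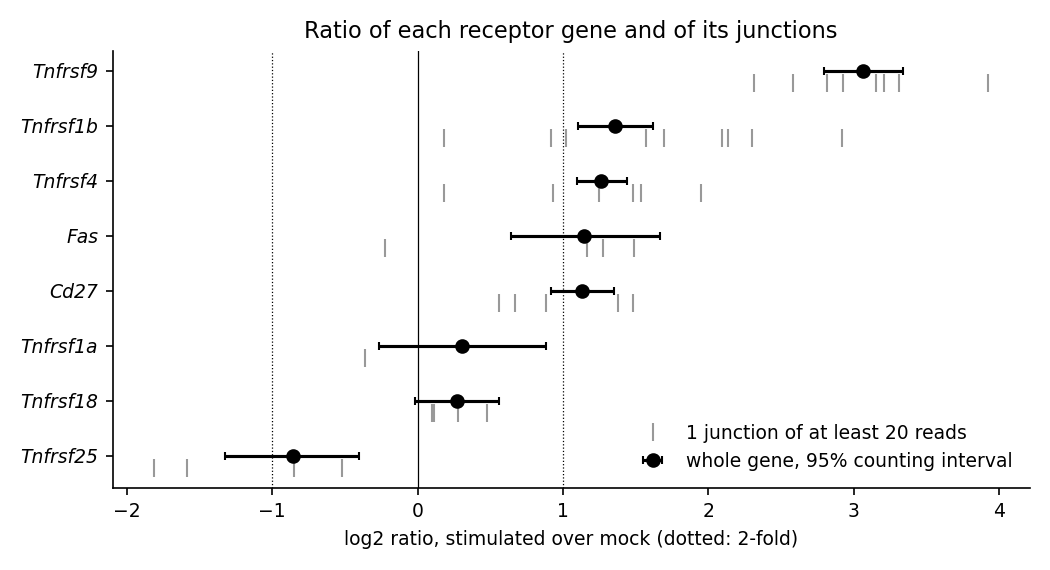
Log2 ratio of stimulated over mock junction RPM for each receptor gene (points, with exact 95% counting intervals) and for each of its junctions with at least 20 reads (ticks). Tnfrsf9 stands apart at 3.06, Tnfrsf25 is the 1 gene below 0, and the dotted lines mark 2-fold.

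Among the costimulatory receptors, Tnfrsf9 had the highest ratio of the 8. It encodes 4-1BB (CD137), a receptor known for appearing on T cells after activation. Its junctions in mm9 span chr4:150299535-150318881 on the plus strand. Tnfrsf9 had 1250 reads in the stimulated library and 128 in the mock library, which is 932 against 112 RPM. The ratio was 8.35 (95% interval 6.96 to 10.1), and 185th among the 7204 genes in order of ratio. All 8 of its junctions with 20 reads were higher in the stimulated library, with ratios between 4.98 and 15.2. The most-read one, intron 5, had 284 reads in stimulated cells and 16 in mock cells. Taken on that junction alone the log2 ratio of Tnfrsf9 was 3.92, and without it 2.88, against 3.06 for the whole gene. The first exon in use was almost always the same one: of 164 stimulated reads that entered the second exon, 163 came from it.

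2 of the 8 receptor genes had the AP-1 letters TGANTCA in the 250 bases before the annotated start, and they were Tnfrsf9 and Fas. AP-1, NF-kB and NFAT are factors that T cell receptor and CD28 signals act through. Over all 32851 promoters of the same length, 6.75% held TGANTCA, 45.8% held an NF-kB pattern (GGG, any 5 bases, CC) and 18.6% held the NFAT letters TGGAAA, on either strand. On either strand, 6 of the 8 receptor genes held the NF-kB pattern and 1, Tnfrsf4, held the NFAT letters. The promoters of the gene with the highest ratio, of Fas, and of the neighbours Tnfrsf4 and Tnfrsf18 are shown from RefSeq (GRCm38.p6), 5′ to 3′ on the strand of the gene, with matches to any of these patterns in capitals. They lie at chr4:150927749-150927998 (Tnfrsf9), chr19:34290409-34290658 (Fas), chr4:156013445-156013694 (Tnfrsf4) and chr4:156026072-156026321 (Tnfrsf18), all on the plus strand.
Tnfrsf9 promoter: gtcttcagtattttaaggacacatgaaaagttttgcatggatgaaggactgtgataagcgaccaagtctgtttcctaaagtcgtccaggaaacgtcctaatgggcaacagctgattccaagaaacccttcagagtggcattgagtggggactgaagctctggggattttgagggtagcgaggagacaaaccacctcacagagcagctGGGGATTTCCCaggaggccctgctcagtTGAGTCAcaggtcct
Fas promoter: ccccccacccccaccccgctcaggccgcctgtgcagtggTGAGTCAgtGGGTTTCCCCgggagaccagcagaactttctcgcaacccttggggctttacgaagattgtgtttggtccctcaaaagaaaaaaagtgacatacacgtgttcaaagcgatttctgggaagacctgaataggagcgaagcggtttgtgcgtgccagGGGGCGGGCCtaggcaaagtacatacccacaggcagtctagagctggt
Tnfrsf4 promoter: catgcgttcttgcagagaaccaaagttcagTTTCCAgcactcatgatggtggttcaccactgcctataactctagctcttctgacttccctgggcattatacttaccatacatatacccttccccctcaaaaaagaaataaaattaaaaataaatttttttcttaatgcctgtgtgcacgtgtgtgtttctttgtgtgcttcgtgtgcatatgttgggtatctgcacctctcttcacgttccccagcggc
Tnfrsf18 promoter: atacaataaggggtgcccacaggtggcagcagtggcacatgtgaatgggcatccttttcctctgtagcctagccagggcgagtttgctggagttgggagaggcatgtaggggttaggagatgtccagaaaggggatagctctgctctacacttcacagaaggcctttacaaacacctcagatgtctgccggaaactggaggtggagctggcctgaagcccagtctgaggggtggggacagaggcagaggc
In the Tnfrsf9 promoter the AP-1 match lies at position −15 from the start, and the NF-kB capitals are 2 overlapping matches at −43 and −42. In the Fas promoter the AP-1 match lies at −211 and the NF-kB matches at −202 and −48. The Tnfrsf18 window holds none of the 3 patterns, and that says only that these letters are not in it. A match is a run of letters, and binding was not measured.

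Tnfrsf9 also had a junction that joins exon 6 to exon 8 and leaves out exon 7. In the annotation exon 7 is 135 bases or 45 codons long and holds the transmembrane segment, and a form of mouse 4-1BB RNA without that exon is known as a source of soluble receptor. The exon is shown with 30 coding bases of exon 6 before it and of exon 8 after it, from the GENCODE M21 transcript, the exon itself in capitals. It lies at chr4:150935422-150935556 in GRCm38, plus strand.
Tnfrsf9 exon 7: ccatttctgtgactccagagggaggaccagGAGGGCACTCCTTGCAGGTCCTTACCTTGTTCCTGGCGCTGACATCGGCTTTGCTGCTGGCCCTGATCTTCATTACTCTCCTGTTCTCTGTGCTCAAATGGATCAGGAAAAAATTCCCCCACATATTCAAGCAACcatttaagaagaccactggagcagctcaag
In the stimulated library 56 of the 173 reads that left exon 6 skipped exon 7, or 32.4% (exact 95% interval 25.5% to 39.9%). In the mock library 8 of 18 did, or 44.4% (21.5% to 69.2%). The intervals overlap, so a difference in the share was not detectable at this depth. Of the reads that entered exon 8, the skipping junction took 56 of 268 in stimulated cells, or 20.9% (16.2% to 26.3%). In mock cells it took 8 of 29, or 27.6% (12.7% to 47.2%), and these intervals overlap too. The skipping junction itself had a ratio of 5.99 (2.84 to 14.5), and the junction from exon 6 to exon 7, with 116 stimulated and 10 mock reads, had 9.92 (5.21 to 21.2). Both joins of Tnfrsf9 thus had more reads in stimulated cells.

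Tnfrsf4 encodes OX40 (CD134), a costimulatory receptor that is bound by OX40 ligand on antigen-presenting cells. Its junctions span chr4:155388116-155390470 in mm9, plus strand. Tnfrsf4 had 1062 reads in stimulated cells and 378 in mock cells, or 792 and 329 RPM, a ratio of 2.40 (2.14 to 2.71). The 6 junctions with 20 reads all had ratios above 1, between 1.13 at intron 1 and 3.86 at intron 6. Intron 1 had 65 stimulated and 49 mock reads, and intron 6 had 221 stimulated and 49 mock reads. The size of the Tnfrsf4 ratio thus differed along the gene, and the cause was not tested.

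A second acceptor in exon 6 of Tnfrsf4, which GENCODE M21 does not list, was read in both libraries and is not part of the gene's count above. Exon 6 of Tnfrsf4 codes for the transmembrane segment. The 24 bases, or 8 codons, between the annotated and the second acceptor are shown in capitals, with 30 coding bases on each side, from the GENCODE M21 transcript at chr4:156016154-156016177 in GRCm38, plus strand. They end in AG, the letters that close an intron.
Tnfrsf4 exon 6 start: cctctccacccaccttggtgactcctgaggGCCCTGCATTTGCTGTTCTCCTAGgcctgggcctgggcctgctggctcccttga
The second acceptor took 55 of 223 stimulated reads leaving exon 5, or 24.7% (19.2% to 30.9%), and 13 of 62 mock reads, or 21.0% (11.7% to 33.2%). The intervals overlap, so a difference in this Tnfrsf4 share was not detectable at this depth.

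Tnfrsf18 encodes GITR, the receptor for GITR ligand, and lies beside Tnfrsf4, with 10176 bp in mm9 between the junctions of these genes. Its 4 named junctions span chr4:155400647-155402603. Tnfrsf18 had 245 reads in stimulated cells and 174 in mock cells, or 183 and 152 RPM. The ratio was 1.20 (0.988 to 1.47), and its junctions ranged from 1.07 to 1.39. The 2 neighbours thus had separate intervals, 2.14 to 2.71 for Tnfrsf4 and 0.988 to 1.47 for Tnfrsf18. 5 of the 8 receptor genes lie on chromosome 4, the others being Tnfrsf9, Tnfrsf25 and Tnfrsf1b.

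Cd27 encodes the receptor for CD70, and it supports survival of T cells after priming. Its junctions span chr6:125183450-125186774 in mm9, minus strand. Cd27 had 646 stimulated and 252 mock reads, or 482 and 220 RPM, a ratio of 2.19 (1.89 to 2.55). The 5 introns had ratios between 1.47 and 2.80, all above 1. The call for Cd27 rests on intron 2, with 327 stimulated and 100 mock reads. Without that junction the log2 ratio was 0.84, under the 2-fold limit.

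A junction of Cd27 that GENCODE M21 does not list, and that is not part of the gene's count, joined exon 1 to exon 3. The skipped exon 2 of Cd27 is 132 bases or 44 codons long and codes for part of the cysteine-rich outer domain. It is shown in capitals with 30 coding bases on each side, on the strand of the gene, from the GENCODE M21 transcript at chr6:125236473-125236604 in GRCm38, minus strand.
Cd27 exon 2: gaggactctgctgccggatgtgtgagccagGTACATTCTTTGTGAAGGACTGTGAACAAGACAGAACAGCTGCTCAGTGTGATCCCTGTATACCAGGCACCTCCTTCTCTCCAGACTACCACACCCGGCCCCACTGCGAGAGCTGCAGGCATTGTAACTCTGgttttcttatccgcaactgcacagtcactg
In stimulated cells 33 of the 88 reads that left exon 1 skipped exon 2, or 37.5% (27.4% to 48.5%). In mock cells 3 of 28 did, or 10.7% (2.27% to 28.2%). Joining to exon 2 took 61.4% (50.4% to 71.6%) of the reads in stimulated cells and 89.3% (71.8% to 97.7%) in mock cells. This was the 1 site counted as different among 29 sites of the 8 receptor genes, by a rule of at least 20 percentage points with intervals that do not overlap, and 1.19% of all 8286 sites tested passed the same rule. The intervals of the skipping share itself overlap slightly, between 27.4% and 28.2%, and the mock side has 28 reads, so the Cd27 difference is close to the limit of this depth. Of the reads that entered exon 3, the skipping junction took 33 of 364 in stimulated cells, or 9.07% (6.32% to 12.5%). In mock cells it took 3 of 103, or 2.91% (0.605% to 8.28%), and that site was not counted as different. The size of the skipping share thus depends on the site at which it is taken.

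**Figure D2:**
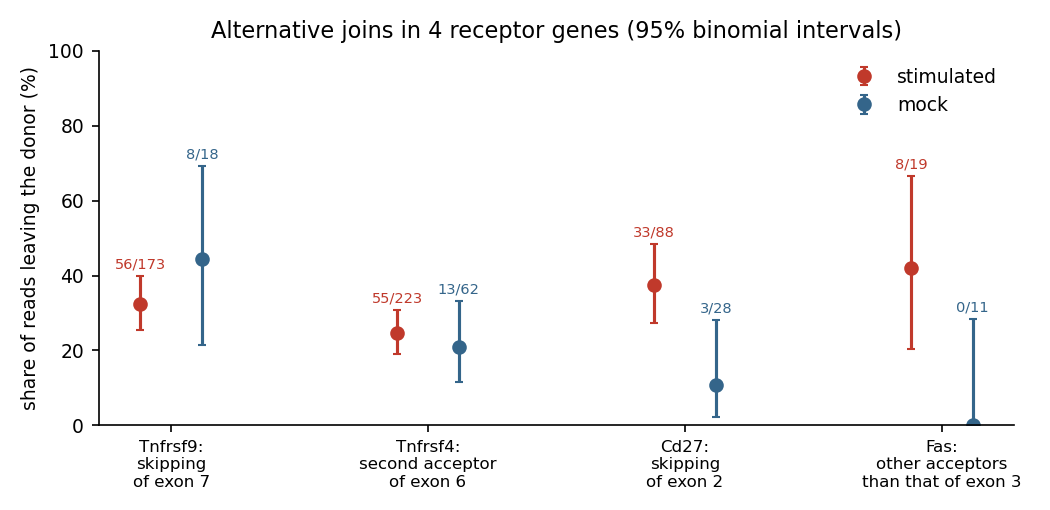
Share of the reads leaving a splice donor that took the alternative join, in the stimulated and the mock library, with exact 95% binomial intervals and the reads behind each share. The mock shares rest on 62 reads or fewer. Of the reads leaving exon 1 of Cd27, 37.5% in stimulated and 10.7% in mock cells skipped exon 2.

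Tnfrsf1b encodes TNFR2, the TNF receptor without a death domain that T cells use for costimulation and that regulatory T cells carry at high levels. Its junctions span chr4:144806004-144836626 in mm9, minus strand. Tnfrsf1b had 513 reads in stimulated cells and 171 in mock cells, or 382 and 149 RPM, a ratio of 2.57 (2.15 to 3.07). All 9 junctions had ratios above 1, but from 1.13 at intron 4, with 49 stimulated and 37 mock reads, to 7.56 at intron 1, with 53 stimulated and 6 mock reads. Introns 1 and 2 of Tnfrsf1b, at the 5′ end, and introns 7 to 9, at the 3′ end, had mock reads between 4 and 13, while intron 3 had 48. With intron 3, the most-read junction, taken alone the log2 ratio of Tnfrsf1b was 0.92, under the 2-fold limit.

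**Figure D3:**
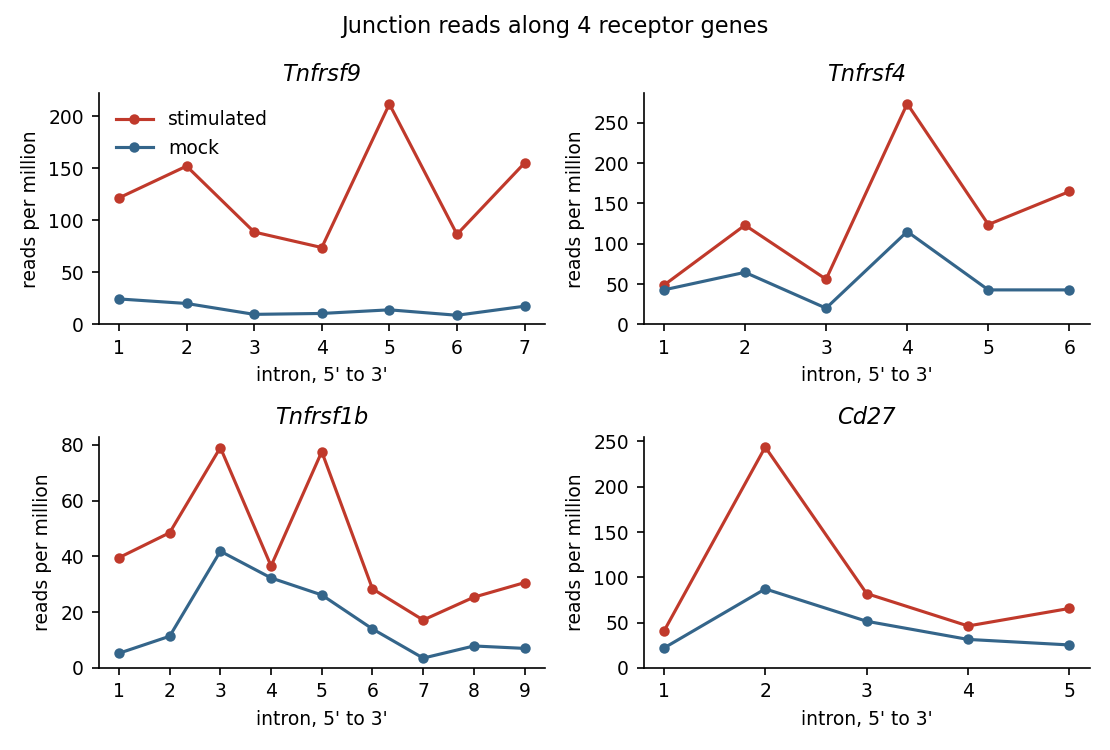
Junction RPM at each intron of 4 receptor genes, from the 5′ to the 3′ end, in the stimulated and the mock library. The Tnfrsf9 lines are apart at every intron, while the Tnfrsf4 lines meet at intron 1 and the Tnfrsf1b lines come close at intron 4; the vertical scales differ.

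Among the death domain receptors, Fas was called higher and the other 2 were not, though the intervals of Fas and Tnfrsf1a overlap. Fas encodes CD95, the receptor through which activated T cells can be killed by Fas ligand. Its junctions span chr19:34365235-34401482 in mm9, plus strand. Fas had 119 reads in stimulated cells and 46 in mock cells, or 88.7 and 40.1 RPM, a ratio of 2.21 (1.56 to 3.18). 3 of its 4 junctions with 20 reads had ratios above 1, and intron 2, with 11 reads in each library, had 0.855. 5 of the 12 named junctions of Fas had no mock read. With these left out the log2 ratio of Fas was 0.76, under the 2-fold limit.

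The last introns of Fas were among those without a mock read. Intron 7 had 14 stimulated and 0 mock reads. Its ratio was 3.99 with 3 mock reads put in place of 0, and the lower limit of the interval was 2.84. Intron 8 had 5 stimulated and 0 mock reads. They flank exon 8, a 25-base exon between the exon for the transmembrane segment and the exon for the death domain. Its length is not a multiple of 3. It is shown in capitals with 30 coding bases on each side, from the GENCODE M21 transcript at chr19:34320561-34320585 in GRCm38, plus strand.
Fas exon 8: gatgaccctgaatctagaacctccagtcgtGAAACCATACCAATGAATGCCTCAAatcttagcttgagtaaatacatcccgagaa
From the donor of exon 2 of Fas, 8 of 19 stimulated reads went to acceptors other than that of exon 3, or 42.1% (20.3% to 66.5%). In mock cells 0 of 11 did, which allows a share of up to 27.3% by a limit of 3 reads, or 28.5% by the exact interval. These Fas shares rest on few reads, and their intervals overlap.

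Tnfrsf1a encodes TNFR1, the death domain receptor for TNF that most cells carry. Its junctions span chr6:125300081-125311704 in mm9, plus strand. Tnfrsf1a had 65 reads in stimulated cells and 45 in mock cells, or 48.5 and 39.2 RPM, a ratio of 1.24 (0.832 to 1.85). The interval includes 1, so a difference in Tnfrsf1a was not detectable at this depth. Single introns of Tnfrsf1a had at most 13 stimulated and 11 mock reads. The 1 intron with more than 20 reads over both libraries had 10 stimulated and 11 mock reads and a ratio of 0.778.

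Tnfrsf25 encodes DR3, the death domain receptor for TL1A, which costimulates T cells. Its junctions span chr4:151490224-151493619 in mm9, plus strand. Tnfrsf25 had 67 reads in stimulated cells and 104 in mock cells, or 49.96 and 90.7 RPM. It was 1.81-fold lower in the stimulated library (1.32 to 2.51), with a ratio of 0.551. All 4 junctions with 20 reads had ratios under 1, between 0.285 and 0.697. Intron 3 had 7 stimulated and 18 mock reads, and intron 9 had 5 stimulated and 15 mock reads. Tnfrsf25 passed the limit for lower genes when its most-read junction was left out, with a log2 ratio of −1.0003, against −0.86 for the whole gene. Other settings made the loss smaller. The log2 ratio of Tnfrsf25 was −0.62 when scaled by the trimmed mean and −0.52 (−1.40 to 0.35) on its most-read junction alone. Tnfrsf25 was the 1 receptor gene of the 8 with a ratio under 1.

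The order of the levels also differed between the libraries. Levels are compared between genes as the mean over the introns of the main transcript, in RPM per intron. In stimulated cells the level was highest for Tnfrsf4 at 132 and Tnfrsf9 at 127, whose counting intervals overlap. Cd27 followed at 95.6, then Tnfrsf18 at 45.7 and Tnfrsf1b at 42.5, which overlap. The lowest levels in stimulated cells were those of Fas at 9.88, Tnfrsf25 at 5.47 and Tnfrsf1a at 5.38, the last pair of which overlap. In mock cells the level was also highest for Tnfrsf4, at 54.6. Cd27 at 43.4 and Tnfrsf18 at 37.9 overlapped, as did Tnfrsf1b at 16.6 and Tnfrsf9 at 14.9. Tnfrsf25 at 9.69 stood above Fas at 4.79 and Tnfrsf1a at 4.36 in mock cells, and the last pair overlapped. Thus Tnfrsf9 stood beside Tnfrsf4 in stimulated cells and in the fifth place in mock cells, while Tnfrsf25 stood under Fas in stimulated cells and above it in mock cells.

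**Figure D4:**
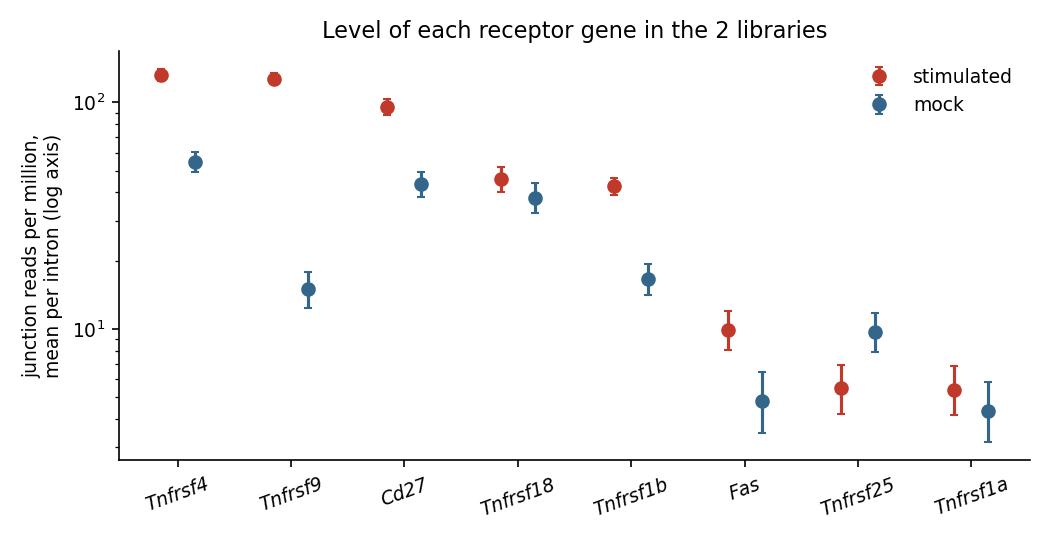
Level of each receptor gene as junction RPM, mean per intron of the main transcript, on a log axis, with exact 95% counting intervals. The stimulated level of Tnfrsf9 is 127 and the mock level 14.9, and Tnfrsf25 is the 1 gene whose stimulated point lies under its mock point.

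The ligands of the family had larger ratios than most of the receptors. Of 18 listed ligand genes, 9 had a named junction and 8 had 20 reads. Of those 8, 7 (87.5%) were higher and none was lower, against 17.1% and 25.1% of all genes. Their median log2 ratio was 2.80. Tnf, whose product binds TNFR1 and TNFR2, had 243 stimulated and 7 mock reads and was 29.7-fold higher (14.2 to 74.6). Lta, which encodes lymphotoxin alpha, a further ligand of both TNF receptors, had 145 stimulated and 18 mock reads, a ratio of 6.89 (4.21 to 11.95). Fasl, the ligand of Fas, had 33 stimulated and 4 mock reads, a ratio of 7.06 (2.51 to 27.4). The call for Fasl was lost at a minimum of 50 reads and without its most-read junction, where it had too few reads. So the ligands of TNFR1, TNFR2 and Fas were higher in the same library as Tnfrsf1b and Fas. Tnfsf9, the ligand of 4-1BB, had 3 stimulated and 0 mock reads, too few for a ratio. Tnfsf4, Tnfsf18, Tnfsf15 and Cd70, the ligands of OX40, GITR, DR3 and CD27, had no named junction in either library. A name needed at least 1 other matching junction of the transcript, so a gene without a named junction may still have reads.

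Other ligands of the family were higher too. Tnfsf11 encodes RANKL, the ligand of RANK on osteoclast precursors and dendritic cells. It had 222 stimulated and 8 mock reads, a ratio of 23.7 (11.8 to 55.7). Tnfsf14, which encodes LIGHT, had 36 stimulated and 0 mock reads. Its ratio was 10.3 with 3 mock reads put in place of 0, and the lower limit of the interval was 7.93. The call for Tnfsf14 was lost at a minimum of 50 reads and with other sets of its junctions, where it had too few reads. Cd40lg, the ligand through which helper T cells act on B cells, had 369 stimulated and 80 mock reads, a ratio of 3.95 (3.09 to 5.09). Tnfsf8, the ligand of CD30, was 2.76-fold higher (1.96 to 3.96). Ltb, which encodes lymphotoxin beta, had 245 stimulated and 203 mock reads and a ratio of 1.03 (0.854 to 1.25), and was the 1 ligand gene with 20 reads that was not called.

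Among the other receptors of the superfamily no gene with 20 reads was called higher. Of 20 listed, 12 had a named junction and 6 had 20 reads; 0 were higher and 3 were lower, against 17.1% and 25.1% of all genes. Their median log2 ratio was −1.11. Tnfrsf26 had 15 stimulated and 161 mock reads, a ratio of 0.0797 (0.0436 to 0.135). Tnfrsf23, which encodes a decoy receptor for TRAIL in the mouse, had 17 stimulated and 35 mock reads, a ratio of 0.415. Its close copy Tnfrsf22 had 15 stimulated and 30 mock reads, a ratio of 0.428, and both values are uncertain because reads may be split between such copies. The call for Tnfrsf22 was lost when scaled by the trimmed mean and when the interval was widened by the spread between junctions, and that for Tnfrsf23 on its most-read junction alone. Tnfrsf14, which encodes HVEM, a receptor for LIGHT, had the most reads of the list, 101 stimulated and 172 mock. Its ratio was 0.502 (0.389 to 0.646), just short of the limit. Some other receptors, picked after their values were seen, had ratios above 1 and were not called. Tnfrsf10b, which encodes the mouse death receptor for TRAIL, had 20 stimulated and 9 mock reads, a ratio of 1.90 (0.827 to 4.74). Cd40, with 12 stimulated and 3 mock reads, and Tnfrsf21, with 6 stimulated and 1 mock read, were under the minimum.

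**Figure D5:**
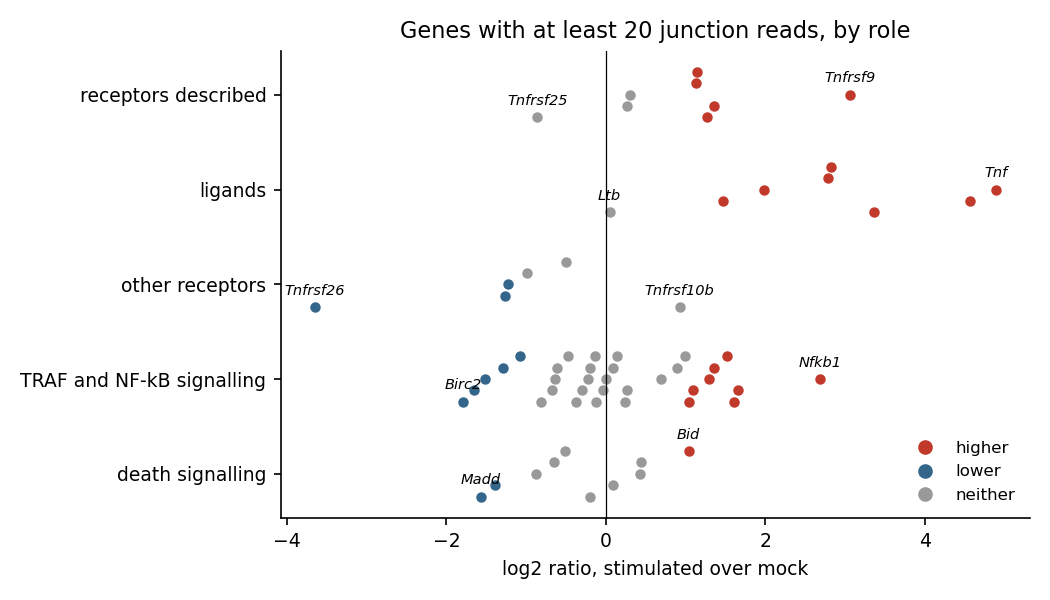
Log2 ratio of stimulated over mock for every gene with at least 20 junction reads, by its role in the TNF receptor family, coloured by call. The 7 called ligands lie to the right of 0, the 3 called other receptors to the left, and signalling genes on both sides.

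Downstream of these receptors, the listed TRAF and NF-kB genes went both ways. Within them 4 of the 5 NF-kB subunit genes were higher, a group set apart after the values were seen. Of 34 listed TRAF and NF-kB genes 33 had 20 reads, of which 8 (24.2%) were higher and 5 (15.2%) lower, near the 17.1% and 25.1% of all genes, or 21.6% and 19.6% when scaled by the trimmed mean. Their median log2 ratio was −0.04, and it is above 0 with that scaling. Nfkb1, the gene for p105 and p50, had the most reads, 8225 stimulated and 1093 mock, a ratio of 6.44 (6.04 to 6.86). Rel was 3.06-fold higher (2.56 to 3.67), Rela 2.55-fold (2.27 to 2.87) and Nfkb2 2.46-fold (2.24 to 2.70). The call for Rel was lost on its most-read junction alone. Relb, the fifth subunit gene, had a ratio of 1.99 (1.71 to 2.33), just short of the limit. Nfkbib, which encodes an inhibitor that holds NF-kB in the cytoplasm, was 3.16-fold higher. The genes of 2 related inhibitors, Nfkbia at 1.61 and Nfkbie at 1.10, were not called; these and Relb were picked after their values were seen. Tnip2, which encodes a partner of A20, was 2.87-fold higher. Among the lower genes were Tnfaip3 and Cyld, which encode deubiquitinases that damp signals of TNF receptors. Tnfaip3 had 324 stimulated and 678 mock reads, a ratio of 0.409, and Cyld had 189 stimulated and 463 mock reads, a ratio of 0.349. Tnip1, which encodes another A20 partner, had a ratio of 0.318, and Birc2, which encodes the ubiquitin ligase cIAP1, had 0.289.

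The TRAF adaptors, chosen here after their values were seen, went different ways. Traf3 had 157 stimulated and 65 mock reads, a ratio of 2.07, and Traf4 had 85 stimulated and 34 mock reads, a ratio of 2.14. Both calls were lost on the gene's most-read junction alone. Traf5, an adaptor of CD27 and OX40, had 42 stimulated and 76 mock reads, a ratio of 0.473, and lost its call when scaled by the trimmed mean. Traf1 at 0.815 and Traf2 at 1.20, the adaptors of 4-1BB and TNFR2, were not called.

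Of the genes for death signalling, 13 of 14 listed had a named junction and 10 had 20 reads. Of those 10, 1 (10%) was higher and 2 (20%) were lower, near the 17.1% and 25.1% of all genes. Their median log2 ratio was −0.36. Casp8, the caspase that starts the death signal of Fas and TNFR1, had 87 stimulated and 195 mock reads, a ratio of 0.382 (0.293 to 0.494). Madd, which encodes a protein that binds the death domain of TNFR1 and had the most reads of the list, had 518 stimulated and 1316 mock reads, a ratio of 0.337 (0.304 to 0.373). Bid, which encodes the caspase-8 substrate that carries the signal to mitochondria, was 2.05-fold higher (1.10 to 4.04), a call lost with the widened interval and with other sets of its junctions. Cflar, which encodes the caspase-8 inhibitor c-FLIP and was picked after its value was seen, had 100 stimulated and 63 mock reads and an interval of 0.981 to 1.89, and was not called. Thus Fas was higher and Casp8 lower in the same library.

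Some markers of the cells in the pool also differed between the libraries. All 10 listed CD4 T cell markers had 20 reads, with a summed level of 6101 RPM in stimulated cells and 4771 in mock cells. Of these 10, 1 (10%) was higher, 1 (10%) was lower and 8 were neither, against 17.1% and 25.1% of all genes. Their median log2 ratio was −0.02, so the summed level does not stand for a common rise. Zap70 was higher with a ratio of 4.21, Cd4 was lower with 0.375, and Lck had the most reads, 1605 stimulated and 1052 mock. Regulatory T cell markers summed to 1531 RPM in stimulated cells and 391 in mock cells. Of the 6 with 20 reads, 2 (33.3%) were higher and 1 (16.7%) was lower, against 17.1% and 25.1% of all genes. Il2ra, which conventional T cells also switch on after stimulation, was 18.01-fold higher, with 1537 of the 2053 stimulated reads of the list and 73 of the 448 mock reads. Foxp3, the defining factor of regulatory T cells, had 258 stimulated and 101 mock reads, a ratio of 2.19 (1.73 to 2.78). Ikzf4 was lower with a ratio of 0.337. The other markers were not called: Ctla4 had a ratio of 0.736 (0.566 to 0.956), Nrp1 0.836 (0.614 to 1.14) and Ikzf2 1.36 (0.776 to 2.44), while Gpr83, with 13 stimulated and 2 mock reads, was under the minimum. The list thus had no common direction, and the part of regulatory T cells in these receptor ratios was not tested.

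Markers of other cells had few reads. B cell markers summed to 130 RPM in stimulated cells and 176 in mock cells, and 5 of the 10 had 20 reads. Blk was lower with a ratio of 0.489, a call lost when scaled by the trimmed mean and with the widened interval. Myeloid markers summed to 70.1 and natural killer markers to 42.5 RPM in stimulated cells, against 81.1 and 41.0 in mock cells. In the myeloid list Csf2ra, with 27 stimulated and 5 mock reads, was 4.62-fold higher (1.75 to 15.4). Mpo had 45 reads in each library, and Lyz2 and Flt3 had 0 stimulated reads against 15 and 8 mock reads. In the natural killer list Eomes, with 36 stimulated and 7 mock reads, was 4.40-fold higher (1.93 to 11.7). The calls for Csf2ra and Eomes were lost on the gene's most-read junction alone, which had under 20 reads. Klrd1 had a ratio of 0.450, a call lost in the same ways as that of Blk. Cd8b1, the CD8 marker with a named junction, had 5 stimulated and 16 mock reads and was lower, but not with the widened interval. The part of these cells in the receptor ratios was not tested.

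Many genes outside the family had ratios like those of its extremes. Among genes with at least 200 reads over both libraries, the log2 ratios nearest to that of Tnfrsf9, 3.06, were those of Clic4 at 3.07, Polr3d at 3.08 and Ubash3b at 3.04. Nearest to Tnfrsf25, at −0.86, were Cux1, Atp11b and Vps13d, all at −0.86. Likeness over 2 libraries is a description of size only.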

How the data were processed

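Total RNA of 2 samples of CD4+ T cells was sequenced, 1 library each. The authors deposited lists of splice junctions whose score column holds counts of reads spanning each junction, used as deposited with no normalization. TopHat, Cufflinks and the build mm9 are named per the submitters' processing notes; for versions, settings and junction filters, nothing is given in the sources used here. A junction that an aligner missed in 1 library changes that gene's ratio, and reads within exons are not counted.

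Genes were named by structure against GENCODE M21 (GRCm38), with no conversion of coordinates: a junction needed the chromosome, strand and length of an annotated intron and the exact distance to at least 1 other junction of the same transcript. Of 124183 junctions 95558 (76.9%) were named, 198 matched several genes and were dropped, and 28427 had no name. Genes with 1 intron or none have no value here. Junction positions are in mm9 and sequences in GRCm38, both counted from 1.

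Values are reads per 1000000 junction reads (RPM); 3 reads equal 2.24 RPM in the stimulated and 2.61 in the mock library, the level a count of 0 allows. Ratios have exact 95% binomial intervals. A count of 0 was replaced by 3 reads in a ratio, while the interval was taken from the count of 0 itself. No p-value was computed, because 1 library per group leaves no spread between samples. A splice site needed 10 reads in each library. The script was tested on simulated data. The genes named were the 8 receptors and, of each of 11 other lists, the called genes (at most 10), the most-read gene and defining genes at 0 in a library; others are said to be chosen after their values were seen, as are the ligands without a ratio, Ltb and the markers of regulatory T cells that were not called. A result that this rule names is not reported here. The receptors and all lists were chosen with earlier results of these data known. Alternatives were other scalings, read minimums, folds of 1.5 and 4, and other sets of junctions. Python 3.11.15, scipy 1.17.1 and edgeR 4.0.16 (for the trimmed mean scaling only) were used.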

Additional observations from a re-analysis of the deposited data

How the results depend on the processing

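Of 385 values recomputed under 14 alternatives, 321 stayed within the limits set for a change, and none of the 43 called genes of the lists, receptors and markers included, changed direction. The median log2 ratio of the 8 receptor genes ranged from 0.94 to 1.38. The number of higher receptor genes, 5, stayed between 4 and 5 except at a fold of 4, where it was 1 (Tnfrsf9). The number of lower ones, 0, became 1 (Tnfrsf25) at a fold of 1.5 and without each gene's most-read junction. The 90 other genes of the pathway include some with under 20 reads, which could not be called. Of the 90, 18 were higher, against 6 at a fold of 4. Lower were 10, against 17 at a fold of 1.5 and 1 at a fold of 4. The shares over all genes, 17.1% higher and 25.1% lower, count only genes with 20 reads, so 90 is not the base to set against them. Counts on the genes with 20 reads are given with each list, and no share over all genes is given here for the other folds. In the TRAF and NF-kB list the 8 higher genes became 5 on the most-read junction only. Death signalling genes had 4 lower in place of 2 on that junction only. The share of all genes called on that junction only is not given here. Of the 10 CD4 T cell markers, 3 were higher in place of 1 when scaled by the trimmed mean, against 21.6% of all genes with that scaling. Of these 43, 24 kept their call under all 10 alternatives other than the fold. Cd27 lost its call without its most-read junction, Tnfrsf1b on that junction only and Fas on junctions seen in both libraries. Tnfrsf1a had a log2 ratio of −0.36 on its most-read junction only, against 0.31 for the whole gene, and was not called in either. The cause was not tested in any of these. The site in Cd27 was also counted with 20 reads in each library and at 10 percentage points. Depth limits Tnfrsf1a, Tnfrsf25 and Fas, with at most 119 reads in a library, and every mock share of a splice site. No paired analysis was possible because each group is 1 library, and for the same reason no replicate could be left out.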

Other observations

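TNF and several of its receptors are cut from the cell surface by ADAM proteases, which was not described above. Of 4 listed genes for this shedding, 3 had a named junction and 20 reads. Of those 3, 2 (66.7%) were higher in stimulated cells and none was lower, against 17.1% and 25.1% of all genes. Their median log2 ratio was 1.22. Adam10, which encodes a protease that also cuts CD40 ligand and Fas ligand, had 725 stimulated and 252 mock reads, a ratio of 2.46 (exact 95% interval 2.13 to 2.85). Rhbdf2, which encodes the partner that brings ADAM17 to the cell surface, had 112 stimulated and 41 mock reads, a ratio of 2.34 (1.62 to 3.43). Its call was lost on the most-read junction alone, with a ratio of 1.28, and on junctions seen in both libraries, with 1.86. Adam17, the TNF converting enzyme itself, picked after its value was seen, had 195 stimulated and 150 mock reads, and its ratio of 1.11 (0.894 to 1.39) was not called.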
